A study of Mus musculus with 17 samples.

Results

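The genes described here are the 9 members of the DNA methylation machinery that were followed through the onset of meiosis: the maintenance factors Dnmt1, Uhrf1 and Hells, the de novo factors Dnmt3a, Dnmt3b and Dnmt3l, and the dioxygenases Tet1, Tet2 and Tet3. They were taken by name from the deposited gene table, and all 9 were among its 23282 genes. The libraries came from male germ cells of mice given as C57BL/6 in the labels and C57BL/6J in the methods, and the cells were sorted by Hoechst and propidium iodide fluorescence into spermatogonia (SPG), preleptotene spermatocytes (PreL) and leptotene plus zygotene spermatocytes (LZ). The wild-type (WT) groups carried no knockout according to the labels. The Nat10-SKO (SKO) groups were labelled Stra8-cre with a Nat10 knockout, and the methods describe them as carrying a floxed and a null Nat10 allele with a Stra8-GFPCre knock-in that removes exons 4 and 5 in germ cells before meiosis. There were 3 libraries in each group except WT LZ, which had 2. The age of the sorted mice was not given in the sources used here, and the labels do not say that the libraries of a group came from separate animals, so that the p-values measure the spread between these libraries, which may be technical.

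Cytosine methylation at CpG sites is copied after replication by DNMT1, which UHRF1 brings to hemimethylated DNA, while HELLS remodels nucleosomes so that compacted DNA can be methylated. DNMT3A and DNMT3B methylate DNA that was unmethylated, and DNMT3L is a cofactor without catalytic activity that is known for its role in fetal prospermatogonia. TET proteins oxidise 5-methylcytosine, the first step of active demethylation. In the male germ line the bulk of methylation is laid down before birth, and transient reduced methylation has been described around premeiotic replication. RNA was measured here, not methylation.

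The 17 libraries held between 5812380 and 13820953 reads, with the shallowest in SKO LZ. The deposited values had been scaled to ERCC spike-in RNA, and the reads behind them were recovered and are given below as RPM, reads per 1000000 reads of the library. The sorted fractions also held markers of other cells. The summed level of 9 late spermatocyte markers was 3843 and 6499 RPM in the WT LZ libraries against 273 to 337 in SKO LZ, and that of 10 spermatid markers was 115 to 1061 in the 8 WT libraries against 4.45 to 14.998 in the 9 SKO libraries. Leydig cell markers were higher in SKO within each stage without overlap, with sums of 5.61 to 57.6 RPM over all WT libraries and 40.8 to 462 over all SKO libraries. Early meiotic markers summed to 3262 to 3371 RPM in WT SPG and 4532 to 4910 in SKO SPG. In PreL the sums were 4838 to 5570 and 6688 to 9464, so the SKO sum was higher in both stages without overlap. In SPG 7 of the 11 markers were higher at a limma adjusted p under 0.05, beside 799 of 12846 genes. In PreL 1 of 11 was, Sycp3, beside 1034 of 13132 genes. The LZ sums overlapped, at 5364 and 6401 in WT and 3563 to 5380 in SKO. The summed level of 7 differentiating spermatogonia markers was higher in SKO SPG, at 905 to 1086 against 668 to 806 RPM. That sum was lower in SKO PreL, at 715 to 797 against 973 to 1079. Single markers of this list were mixed by the call thresholds given below. In SPG 1 was called lower in SKO and 1 higher, beside 2.06% and 3.95% of all genes. In PreL 1 was called lower and 2 higher, beside 5.83% and 5.32%. The part of these shifts in the values below was not tested. In such bulk samples fewer cells of a type and less RNA per cell cannot be told apart. Nat10 itself was at 30.2 to 37.2 RPM in WT SPG and 14.7 to 22.6 in SKO SPG, at 23.1 to 36.4 and 10.1 to 14.96 in PreL, and at 28.1 to 28.6 and 6.83 to 8.81 in LZ, so it was lower in SKO in each stage without overlap.

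Before the values, the promoters of the 3 maintenance genes Dnmt1, Uhrf1 and Hells are shown, because each gene had a motif match described here. They were picked with the lower Dnmt1 and Uhrf1 in SKO spermatogonia already known. A link of the matches to the genotype differences was not tested. RefSeq start sites on GRCm38.p6 gave 16 windows of 250 bases before to 50 bases after the start for the 9 genes. Both strands were searched for the E2F-type octamers TTTCCCGC, TTTGGCGC, TTTCGCGC and TTTGCCGC, which belong to the cell cycle factors of the E2F family, and for CNCCTCAG, the STRA8 motif. At least 1 E2F-type octamer was present in 2.26% of 32851 promoter windows of this length. Of the 16 windows of the 9 genes, 3 held a match, 1 each in Dnmt1, Uhrf1 and Hells. Every octamer contains CG, and the background windows were not matched for their number of CpG sites. The octamers are in capitals.
Dnmt1, chr9:20952574-20952873, minus strand: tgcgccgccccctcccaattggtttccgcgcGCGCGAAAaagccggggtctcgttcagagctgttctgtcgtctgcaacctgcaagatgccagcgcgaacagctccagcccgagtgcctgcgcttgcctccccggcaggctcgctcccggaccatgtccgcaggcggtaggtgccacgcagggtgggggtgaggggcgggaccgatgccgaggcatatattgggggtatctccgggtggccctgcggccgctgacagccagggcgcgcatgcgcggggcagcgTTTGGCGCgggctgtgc
Uhrf1, chr17:56304063-56304362, plus strand: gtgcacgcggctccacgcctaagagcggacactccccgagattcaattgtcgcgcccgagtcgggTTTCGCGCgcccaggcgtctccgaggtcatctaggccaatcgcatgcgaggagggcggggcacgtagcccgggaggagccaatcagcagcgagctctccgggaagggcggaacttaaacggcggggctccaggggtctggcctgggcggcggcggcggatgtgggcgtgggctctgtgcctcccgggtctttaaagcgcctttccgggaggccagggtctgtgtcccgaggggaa
Hells, chr19:38930740-38931039, plus strand: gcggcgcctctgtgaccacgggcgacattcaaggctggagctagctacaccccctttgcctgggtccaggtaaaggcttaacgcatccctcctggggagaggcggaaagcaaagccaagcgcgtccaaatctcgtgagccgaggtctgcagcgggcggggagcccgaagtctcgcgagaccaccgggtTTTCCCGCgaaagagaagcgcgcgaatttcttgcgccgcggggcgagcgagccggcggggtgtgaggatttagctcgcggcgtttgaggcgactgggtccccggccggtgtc

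The Dnmt1 window belonged to the third of its 3 listed starts and held an octamer on each strand, and the Uhrf1 window to the second of 2. These windows held 33, 33 and 34 CpG sites against a median of 7 over all windows, whereas the most upstream Dnmt1 window, at chr9:20959839-20960138, held 2 and no octamer. Windows without an octamer could be as rich in CpG sites, with 57 in Tet2, 46 and 47 in the first 2 of 3 Dnmt3a windows and 30 in Dnmt3b. STRA8, which drives meiotic entry, had its motif in 7.94% of all windows, and among the 9 genes only the second Dnmt3l window held it, at 2 positions. A match describes the letters in these windows, and which start was used in these cells cannot be read from counts per gene.

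Expressed per kilobase of exon, the order of the genes was led by Hells in all 6 groups, at 87.1 ± 0.512 RPKM (SD, n = 2), that is RPM divided by the kilobases of exon, in WT LZ and up to 149 ± 5.49 (SD, n = 3) in SKO PreL. Uhrf1 and Dnmt1 followed, with 22.1 ± 2.57 and 20.2 ± 1.73 RPKM in WT SPG (SD, n = 3), where their libraries overlapped. Dnmt3b was at 12.4 ± 2.26 and Dnmt3a at 7.65 ± 0.356 RPKM in the same libraries, and Tet3 at 2.62 ± 0.377. Tet3 was therefore the one TET gene at an appreciable level. Tet1, Tet2 and Dnmt3l stayed under 0.3 RPKM as group means in all 6 groups, and their order among themselves was not resolved in WT, where neighbouring genes overlapped. In SKO LZ Dnmt3b ranked above Dnmt1, at 12.4 ± 0.285 against 11.1 ± 0.762 RPKM (SD, n = 3), without overlap.

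**Figure D1:**
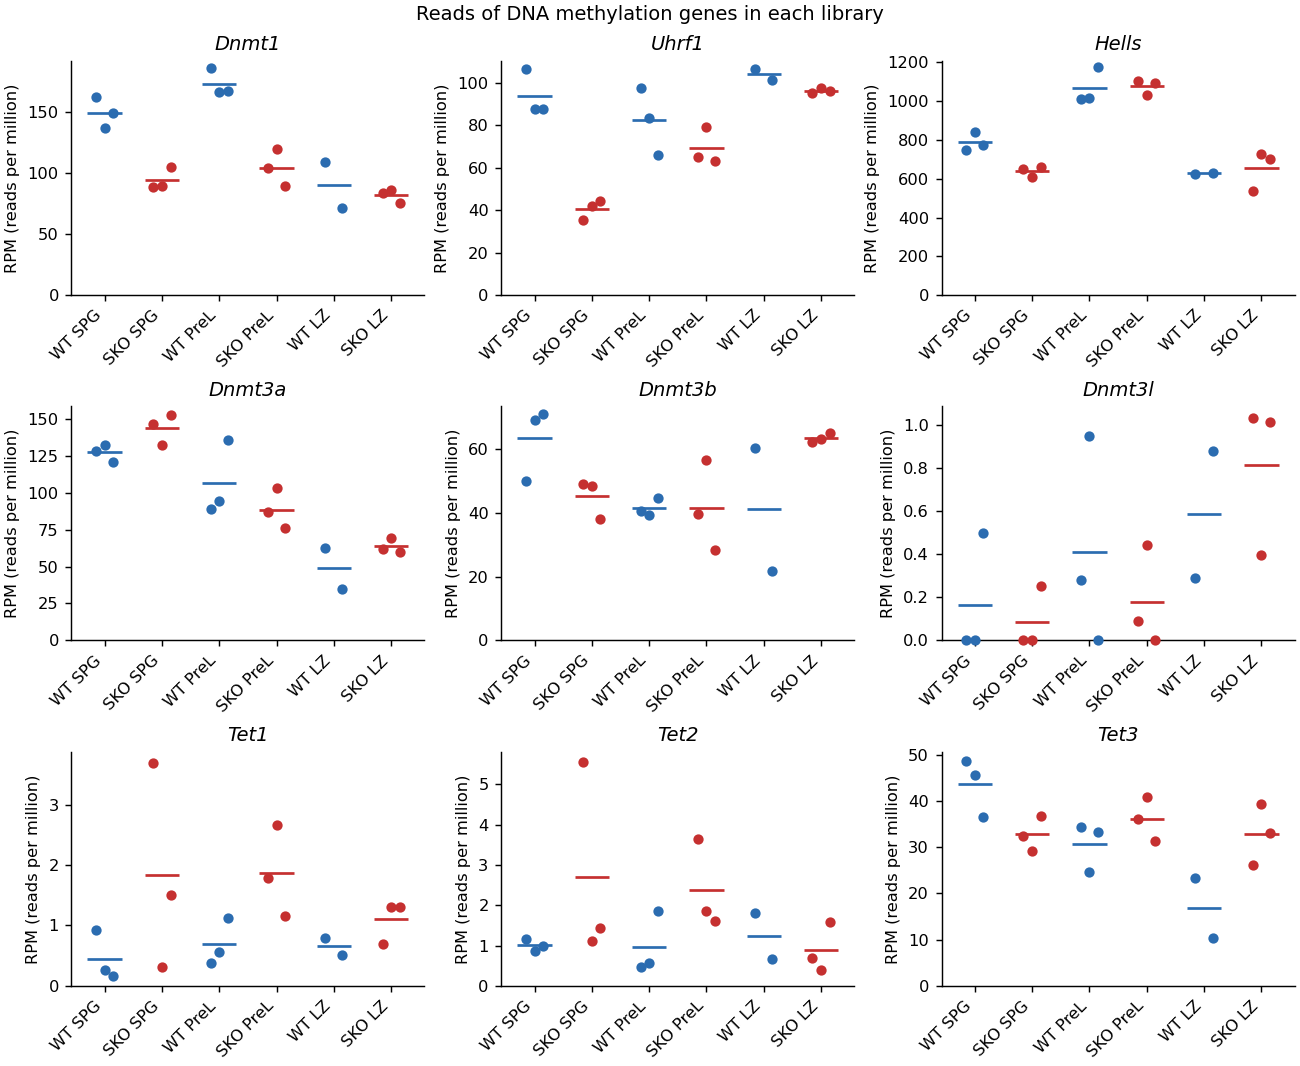
RPM (y axis, linear from 0) of the 9 genes in each of the 17 libraries, as points by genotype and stage (blue, WT, red, SKO), with a horizontal line at the mean of each group. Uhrf1 is lowest in SKO SPG at 35.4 to 44.4, Dnmt1 is lower in SKO than in WT in SPG and PreL, and Tet1, Tet2 and Dnmt3l lie below 6 in every library.

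The comparison of SKO with WT within a stage asks how loss of NAT10, the enzyme that places N4-acetylcytidine on RNA, goes with the level of each transcript. Fold changes below are on the scale of log2(rescaled value + 10), and a gene was called at an adjusted p under 0.05 with an absolute log2 fold change above 1, by limma with Benjamini-Hochberg adjustment over all genes tested.

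In spermatogonia Uhrf1 was the gene that fell. It was at 107, 87.6 and 87.8 RPM in WT SPG and at 35.4, 42.2 and 44.4 in SKO SPG, so that every SKO library lay well below every WT library. After rescaling this was 2.31-fold lower in SKO, a log2 fold change of -1.21 (SE 0.17, limma adjusted p = 0.00067). Dnmt1 was at 162, 137 and 149 RPM in WT SPG and at 88.5, 89.0 and 105 in SKO SPG, again without overlap. Its log2 fold change of -0.68 (SE 0.13, limma adjusted p = 0.0062) passed the p threshold and not the fold threshold. Hells was at 746 to 841 RPM in WT and 608 to 658 in SKO, a log2 fold change of -0.32 with a limma adjusted p of 0.085. Of these 3 maintenance genes 2 had an adjusted p under 0.05, both lower, beside 4.84% of all genes tested in this stage that were lower by that criterion.

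Among the de novo genes Dnmt3a was at 121 to 133 RPM in WT SPG and 132 to 153 in SKO SPG, a log2 fold change of 0.16 with a 95% interval of -0.12 to 0.44. Dnmt3b was at 49.99 to 70.8 in WT and 38.1 to 49.1 in SKO, with a log2 fold change of -0.49 (limma adjusted p = 0.15). Its WT and SKO libraries did not overlap in RPM but did after rescaling. Tet3 was at 36.7 to 48.8 in WT and 29.2 to 36.8 in SKO, with a log2 fold change of -0.42 (limma adjusted p = 0.21).

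Of the 8 members tested in spermatogonia, 1 was called lower and 0 higher, beside 2.06% and 3.95% of 12846 genes. The median log2 fold change of these 8 was -0.37, and that of all genes 0.00. The summed level of 22 S phase genes was 2996 to 3027 RPM in WT SPG and 2319 to 2579 in SKO SPG, without overlap. Of the 22, 1 was called lower, Rrm1, and 8 had an adjusted p under 0.05, all 8 lower in SKO, beside the 2.06% and 4.84% of all genes. The part of this shift in the Uhrf1 and Dnmt1 values was not tested.

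In preleptotene spermatocytes Dnmt1 stood apart from the others. It was at 186, 167 and 167 RPM in WT PreL and at 104, 120 and 89.5 in SKO PreL, without overlap. Its log2 fold change was -0.80 (SE 0.12, limma adjusted p = 0.0026), 1.74-fold lower and short of the fold threshold. On the deposited ERCC-calibrated values without rescaling, where the median of all genes was 0.73 higher in SKO, Dnmt1 was at -0.08, so its deficit is relative to other transcripts. Uhrf1, at 97.6, 83.4 and 66.1 RPM in WT PreL and 65.0, 79.0 and 63.3 in SKO PreL, overlapped between genotypes, with a log2 fold change of -0.31 (limma adjusted p = 0.18).

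Hells was at 1014 to 1175 RPM in WT PreL and 1032 to 1106 in SKO PreL, and its log2 fold change of -0.05 had a 95% interval of -0.37 to 0.27. The intervals were -0.75 to 0.12 for Dnmt3a, -0.60 to 0.35 for Dnmt3b and -0.23 to 0.58 for Tet3, and each of these genes overlapped between genotypes. On the values without rescaling Uhrf1, Hells, Dnmt3a and Dnmt3b turned to the higher side. No member was called among the 8 tested, beside 5.83% of 13132 genes called lower and 5.32% called higher. Dnmt1 was also the 1 member with an unadjusted p under 0.05 by limma, beside 33.7% of all genes. At the thresholds for a call edgeR and DESeq2, like limma, called 0. The S phase sum was 2330 to 2519 RPM in SKO against 2949 to 3301 in WT, without overlap. Of the 22, 2 were called lower, Rrm1 and Chaf1a, and 11 had an adjusted p under 0.05, all lower, beside the 5.83% of all genes called lower and the 17.9% past that p in either direction, of which 1318 of 13132 genes were lower. Their part in the Dnmt1 result was not tested.

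In leptotene and zygotene spermatocytes the genes that rose were the de novo enzyme Dnmt3b and the dioxygenase Tet3. Tet3 was at 23.4 and 10.3 RPM in WT LZ and at 26.2, 39.4 and 33.1 in SKO LZ. Every SKO library lay above both WT libraries, and after rescaling Tet3 was 2.68-fold higher, a log2 fold change of 1.42 (SE 0.27, limma adjusted p = 0.0040). Dnmt3b was at 60.2 and 21.9 RPM in WT LZ and at 62.3, 63.1 and 65.1 in SKO LZ, with a log2 fold change of 1.18 (SE 0.30, limma adjusted p = 0.013). One WT library lay just under the SKO libraries and the other far below them. Without WT LZ replicate 3, the lower of the pair, Dnmt3b was at 0.64 and was no longer called, and Tet3 at 1.03 was still called.

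Dnmt3a was at 62.6 and 34.9 RPM in WT LZ and at 61.6, 69.4 and 60.2 in SKO LZ, which overlapped, whereas the rescaled values did not. Its log2 fold change of 0.82 (SE 0.19, limma adjusted p = 0.0083) was under the fold threshold, and it reached 1.005 and was called without WT LZ replicate 2. The maintenance genes showed no call. Dnmt1 was at 109 and 71.0 RPM in WT LZ and 75.3 to 86.1 in SKO LZ, and its log2 fold change of 0.27 had a 95% interval of -0.12 to 0.66. Uhrf1 was at 107 and 101 in WT and 95.3 to 97.8 in SKO, with an interval of -0.13 to 0.67, and Hells at 625 and 630 in WT and 536 to 727 in SKO, with an interval of -0.04 to 0.89. The lower Dnmt1 seen in SKO before meiotic entry was thus not found in this stage.

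Of the 7 members tested in LZ, 2 were called higher and 0 lower, beside 13.4% and 25.8% of 13724 genes. The median of the 7 was 0.43 and that of all genes -0.13. Scaling to total reads in place of median ratios moved the all-gene median to -0.50. There Tet3 was still called at 1.05, Dnmt3b was at 0.80 and not called, and Dnmt1 and Uhrf1 turned to -0.11 each. The late spermatocyte markers given above moved with the genotype in this stage, 8 of 9 being called lower in SKO. Between the 2 WT LZ libraries the one with the higher late spermatocyte sum, 6499 against 3843 RPM, was also the one with less Dnmt1, Dnmt3a, Dnmt3b and Tet3. That library, WT LZ replicate 3, had the lower spermatid sum, 640 against 1061 RPM. Its S phase sum, 1689 against 1996, and undifferentiated spermatogonia sum, 83.6 against 182, were lower too. Sertoli markers stood at 1266 RPM in WT LZ replicate 2, at 254 in WT LZ replicate 3 and at 411 to 571 in SKO LZ. The part of these marker differences in the values was not tested.

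**Figure D2:**
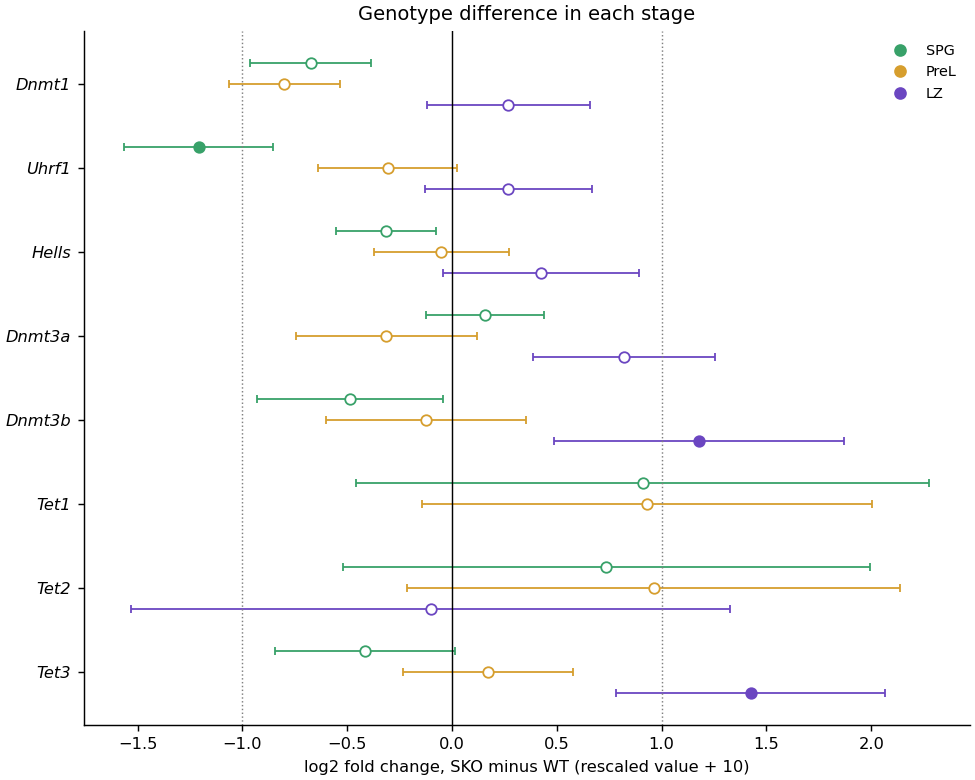
Difference between SKO and WT in each stage (x axis, log2 fold change of rescaled value + 10) for the 8 members tested in at least 1 stage, with 95% intervals as bars. Filled points were called. Uhrf1 in SPG lies at -1.21, and Dnmt3b and Tet3 in LZ lie at 1.18 and 1.42, beyond the dotted lines at -1 and 1.

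Tet1 and Tet2 were near the limit of detection. In WT SPG Tet1 had 12, 3 and 2 reads and in SKO SPG 40, 3 and 18, and Tet2 had 15, 10 and 12 reads in WT and 60, 11 and 17 in SKO. A single library, SKO SPG replicate 1, held most of the reads of both genes in its group. Their log2 fold changes in spermatogonia, 0.91 and 0.74, had 95% intervals of -0.46 to 2.28 and -0.52 to 1.99. That library also had the highest Leydig, myoid and macrophage marker sums of the spermatogonia, 226, 519 and 194 RPM, against 5.61 to 15.5, 1.38 to 48.6 and 22.2 to 25.2 in WT SPG, and their part was not tested. In PreL the log2 fold changes were 0.93 for Tet1 (limma adjusted p = 0.21) and 0.96 for Tet2 (limma adjusted p = 0.23), with 13 to 30 and 18 to 41 reads in SKO against 4 to 12 and 5 to 20 in WT. In LZ Tet1 was not tested, and Tet2 had a 95% interval of -1.53 to 1.33.

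Dnmt3l had between 0 and 12 reads per library and was tested in no comparison. It had 0 reads in 6 of the 17 libraries, a count that allows up to 3 reads, so a difference between the groups was not detectable at this depth.

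The comparison of successive stages within a genotype asks how each transcript moved from spermatogonia into meiotic prophase. From WT SPG to WT PreL no member was called among 7 tested, beside 1.21% of 12657 genes lower and 2.54% higher. Hells went from 746 to 841 up to 1014 to 1175 RPM (log2 fold change 0.47, limma adjusted p = 0.062), and Dnmt3b from 49.99 to 70.8 down to 39.3 to 44.7 (-0.56, limma adjusted p = 0.11). For both genes the stages did not overlap in RPM, but those of Dnmt3b did after rescaling. Hells, Dnmt3b and Tet3 were the 3 members with an unadjusted p under 0.05 by limma, beside 26.3% of all genes. At the thresholds for a call edgeR and DESeq2, like limma, called 0. In SKO 8 members were tested over the same step and none was called, beside 0.955% of 12882 genes lower and 1.63% higher. With the same fold threshold edgeR and DESeq2 also called 0. Without that threshold 3 members had an adjusted p under 0.05 by limma, beside 5.62% of all genes. Uhrf1 had a log2 fold change of 0.76 (SE 0.15, limma adjusted p = 0.023), Hells of 0.76 (SE 0.12, limma adjusted p = 0.0089) and Dnmt3a of -0.70 (SE 0.13, limma adjusted p = 0.015). On the values without rescaling, where the all-gene median of this step was 1.01, Dnmt3a turned to 0.34.

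The test of the difference between both genotype effects, PreL minus SPG, called 0 members of 8, beside 0.111% of 13530 genes lower and 0.251% higher by an adjusted p under 0.05 alone. By limma 2 members, Uhrf1 and Dnmt3a, had an unadjusted p under 0.05, beside 15.2% of all genes. The difference of Uhrf1 was 0.88 (SE 0.20, limma adjusted p = 0.058), and 1 member passed by DESeq2 and 0 by edgeR. The deficit of Uhrf1 in SKO spermatogonia and its smaller one in SKO PreL were thus not shown to differ at the threshold.

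From PreL to LZ in WT, Dnmt1, Dnmt3a and Tet3 fell. Dnmt1 went from 186, 167 and 167 RPM to 109 and 71.0 (log2 fold change -1.13, SE 0.19, limma adjusted p = 0.0034). Dnmt3a went from 88.9, 94.5 and 135 to 62.6 and 34.9 (-1.31, SE 0.28, limma adjusted p = 0.0087), and Tet3 from 34.4, 24.6 and 33.3 to 23.4 and 10.3 (-1.10, SE 0.34, limma adjusted p = 0.034). The 2 stages did not overlap for any of the 3 genes. Hells had a log2 fold change of -0.92 (limma adjusted p = 0.010), under the fold threshold, while Uhrf1 was at 0.19 (limma adjusted p = 0.51) and Dnmt3b at -0.35 (limma adjusted p = 0.44).

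Of the 7 members tested in WT 3 were called lower and 0 higher, beside 7.8% and 18.8% of 13759 genes. These falls are relative to other transcripts. On the ERCC-calibrated values without rescaling the median of all genes was 1.86 higher in LZ, and there Dnmt1 was at 0.70, Hells at 0.91, Dnmt3a at 0.51 and Tet3 at 0.70, with Dnmt3b called higher at 1.47. With rescaling to total reads 1 of the 3 stayed beyond the fold threshold, Dnmt3a at -1.15, with Dnmt1 at -0.97 and Tet3 at -0.95. Without WT LZ replicate 3 Dnmt1 was at -0.9999, Tet3 at -0.70 and Dnmt3a at -1.07, and none of the 3 was called. Hells reached -1.11 in that fit. S phase genes moved in the same direction, 12 of 22 being called lower and 1 higher. Called higher were 7 of 7 Sertoli and 8 of 9 late spermatocyte markers tested, and 0 of either list were called lower. The Sertoli sum was 61.7 to 69.5 RPM in WT PreL and 254 and 1266 in WT LZ. The part of these shifts in the falls was not tested.

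In SKO, Dnmt3b rose over the same step. It was at 39.5, 56.6 and 28.3 RPM in PreL and 62.3, 63.1 and 65.1 in LZ, without overlap (log2 fold change 1.08, SE 0.18, limma adjusted p = 0.0020). Without SKO PreL replicate 3, the library with the least Dnmt3b, it was at 0.91 and not called, and with scaling to total reads at 0.67 and not called. Uhrf1 went from 65.0, 79.0 and 63.3 to 95.3, 97.8 and 96.0 RPM, with a log2 fold change of 0.90 (SE 0.12, limma adjusted p = 0.00053) under the fold threshold. Dnmt1 went from 104, 120 and 89.5 to 83.6, 86.1 and 75.3 RPM and Dnmt3a from 86.7, 103 and 75.9 to 61.6, 69.4 and 60.2, both lower in LZ without overlap. After rescaling Dnmt1 was at 0.07, Dnmt3a at -0.05 and Tet3 at 0.26 on the log2 scale, with 95% intervals of -0.20 to 0.34, -0.31 to 0.21 and -0.06 to 0.58. With scaling to total reads they were at -0.34, -0.46 and -0.15, and none was called. The calls were 1 member higher and 0 lower of 8, beside 10.6% and 6.93% of 12477 genes.

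**Figure D3:**
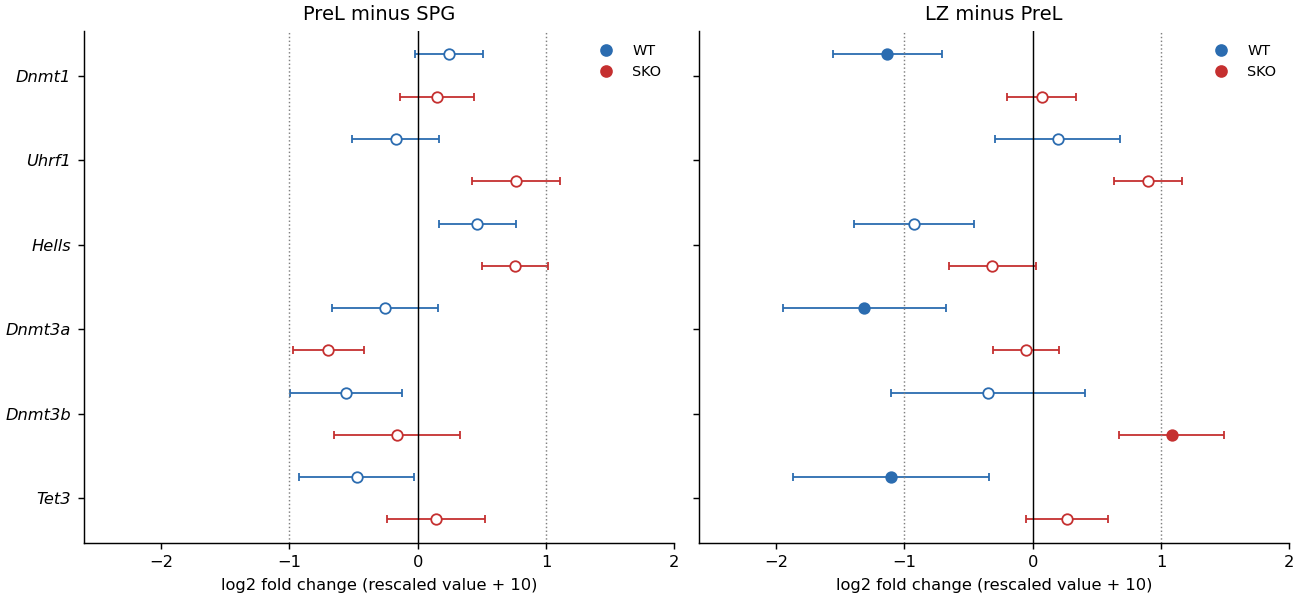
Change from SPG to PreL (left) and from PreL to LZ (right) in WT (blue) and SKO (red) for the 6 members with an appreciable level, as log2 fold change of rescaled value + 10 (x axis) with 95% intervals as bars and called genes filled. From PreL to LZ Dnmt1, Dnmt3a and Tet3 lie at -1.13, -1.31 and -1.10 in WT and at 0.07, -0.05 and 0.26 in SKO.

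The difference between the genotypes over this step was tested as the genotype effect in LZ minus that in PreL. It was above 0 for 5 of 8 members at an adjusted p under 0.05 and below 0 for none, beside 15.1% and 23.1% of 13530 genes. The differences were 1.09 for Dnmt1 (SE 0.18, limma adjusted p = 0.00011), 0.60 for Uhrf1 (SE 0.21, limma adjusted p = 0.034), 1.15 for Dnmt3a (SE 0.25, limma adjusted p = 0.0014), 1.32 for Dnmt3b (SE 0.37, limma adjusted p = 0.0088) and 1.26 for Tet3 (SE 0.31, limma adjusted p = 0.0036). Hells had 0.50 (limma adjusted p = 0.062). Of 22 S phase genes 10 were above 0 and 2 below 0 by the same criterion, beside the 15.1% and 23.1% of all genes. Their median was 0.52, and their part in the members' values was not tested. The median of all genes was -0.31. With scaling to total reads that median was -0.74 and 1 member passed, Dnmt1 at 0.63. Without rescaling it was -1.12 and no member passed, with Uhrf1 at -0.27 and Hells at -0.37. The comparison used WT PreL and WT LZ, which also enter the fits above.

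**Figure D4:**
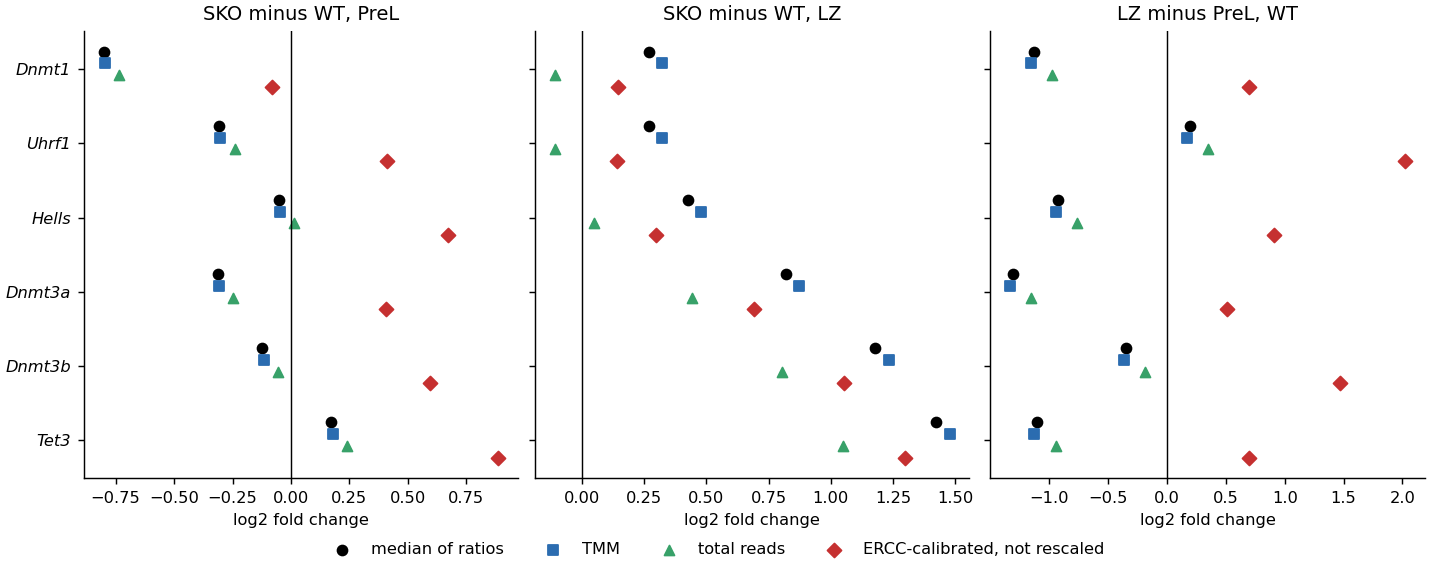
Log2 fold change (x axis) of 6 members under 4 ways of scaling the same reads, for SKO minus WT in PreL (left) and LZ (middle) and for LZ minus PreL in WT (right). Dnmt1 from PreL to LZ in WT lies at -1.13 with median ratios and -0.97 with total reads, and at 0.70 on ERCC-calibrated values that were not rescaled.

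Across the 17 libraries the members did not share a single pattern. The Pearson correlation of their log2 rescaled values, which carry genotype and stage together, ranged from -0.57 for Uhrf1 with Dnmt3a to 0.69 for Tet1 with Tet2, and Dnmt1 and Uhrf1 were at 0.28. Among 8665 genes that averaged 100 reads or more, Dnmt1 was most like E2f1 (0.92), a transcription factor of the G1 to S transition, Aif1l (0.92) and Wdhd1 (0.90), a replication factor. Uhrf1 was most like Rpl37a (0.93), Nudt21 (0.93) and Mbtd1 (0.92). Hells was most like Esco2 (0.92), an acetyltransferase of cohesin, Uba6 (0.91) and Appbp2 (0.89). For Dnmt3a these were Cdk2ap1 (0.95), Trmt6 (0.94) and Tars (0.94), for Dnmt3b Zc3h7b (0.91) and Rab18 (0.89), and for Tet3 Hmgb3 (0.93), Snx10 (0.91) and Inpp5f (0.91). The genes most like the sparse members were led by Sin3a (0.84) for Dnmt3l, Il6st (0.83) for Tet1 and B4galt1 (0.77) for Tet2. Star, a gene of Leydig cell steroid synthesis, was the third for Tet1 (0.79). These values describe 17 libraries that share stages and genotypes.

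Other genes of the pathway were taken from 5 lists. These were further maintenance factors, de novo targeting and imprint protection, methyl-CpG readers with related proteins, active demethylation with base excision, and methyl donor supply. In spermatogonia 3 of 53 tested were called higher and 0 lower, beside 3.95% and 2.06% of all genes. They were Ctcfl (log2 fold change 1.05, limma adjusted p = 0.00028), the germ cell paralog of CTCF, Mbd2 (1.06, limma adjusted p = 0.0047), a reader of methylated CpG, and Idh2 (2.26, limma adjusted p = 0.015), a mitochondrial enzyme that makes the TET cosubstrate 2-oxoglutarate. Idh2 averaged only 39.9 reads over the 17 libraries. In PreL Ctcfl was higher (1.06, limma adjusted p = 0.035) and the glycosylase gene Neil3 lower (-1.43, limma adjusted p = 0.011) of 52 tested, beside 5.32% and 5.83% of all genes.

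In LZ 11 of 53 were called higher and 6 lower. Among maintenance factors 1 of 8 rose, Cdca7 (1.02, limma adjusted p = 0.010), a partner of HELLS. Of 10 targeting and imprint genes 3 rose and 2 fell. The largest were Zfp57 (-3.65, limma adjusted p = 0.0017), which protects imprints, Dppa3 (2.27, limma adjusted p = 0.045), which limits UHRF1, Ctcfl (1.41, limma adjusted p = 0.0015) and the demethylase gene Kdm1b (1.20, limma adjusted p = 0.0010). Zfp57 and Dppa3 averaged only 14.6 and 26.8 reads over the 17 libraries, so their values rest on few reads. Of 10 genes on the list of readers with related proteins 3 rose and 1 fell. Zbtb33 was at 1.97 (limma adjusted p = 0.00011), Mbd2 at 1.47 (limma adjusted p = 0.0011), Mbd4 at 1.03 (limma adjusted p = 0.011) and Mbd3 at -1.25 (limma adjusted p = 0.0033).

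Of 14 genes of demethylation and base excision in LZ 3 rose and 2 fell, led by Gadd45a (2.22, limma adjusted p = 0.00015), a stress gene, the ligase gene Lig3 (-2.08, limma adjusted p = 0.00046), the glycosylase gene Neil2 (1.79, limma adjusted p = 0.0048) and Idh2 (1.70, limma adjusted p = 0.011). Neil2 and Idh2 averaged only 40.4 and 39.9 reads over the 17 libraries. Of 11 methyl donor genes Ahcy rose (1.02, limma adjusted p = 0.0029), whose enzyme clears S-adenosylhomocysteine. The median over the 53 genes was 0.11 against -0.13 for all genes. The shares, 11 and 6 of 53, stand beside the 13.4% and 25.8% given above.

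The genes lie, in GENCODE coordinates on GRCm38, at chr9:20907209-20959888 (Dnmt1, minus strand), chr17:56303321-56323486 (Uhrf1, plus), chr19:38930915-38971051 (Hells, plus), chr12:3806007-3914443 (Dnmt3a, plus), chr2:153649450-153687730 (Dnmt3b, plus), chr10:78041947-78063622 (Dnmt3l, plus), chr10:62804570-62908996 (Tet1, minus), chr3:133463679-133545139 (Tet2, minus) and chr6:83362373-83459084 (Tet3, minus). Counting by strand was not stated. Of the exon bases of Dnmt3a 133 overlap an antisense gene, as do 43 of Tet2, and 67 of Dnmt3l overlap Aire on the other strand. Of the windows of 75 exon bases, 9.05% of those in Uhrf1 occur also in Gm5648 and 6.17% of those in Dnmt3b in Dnmt3c, which was not analysed here, and reads from these stretches can be lost when only unique alignments are counted.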

How the data were processed

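Sorted germ cells were profiled by Smart-seq2 with ERCC spike-in RNA and paired-end sequencing. The authors trimmed the reads, mapped them to mm10 and counted uniquely mapped reads per gene (HTSeq 0.11.2), and the processing notes also name Cufflinks 2.2.1, TopHat2 2.1.1, DESeq2 and mm9. The deposited signal values are such counts, scaled by the authors to the spike-in and cell input. The scaling factor of each library was the smallest value, and division by it gave whole reads for 100.0% of values (tolerance 0.001 reads).

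Size factors by the median of ratios were divided out. Genes averaging 10 or more recovered reads entered the tests, made on log2(value + 10) with limma 3.58.1 (R 4.3.3, trend) in a fit of both groups, or of all 17 libraries for differences between effects. Calls needed an adjusted p under 0.05 with an absolute log2 fold change beyond 1 (no fold threshold for differences between effects). On simulated data for SKO against WT in SPG over 12846 genes, 120 of 200 genes changed by 2 on the log2 scale were called, with 3 false calls. RPKM used the union of GENCODE exons. Replicate libraries differed by more than sampling noise (chi-square of 5.88 or more for each degree of freedom), so none was merged. Counting error alone sets the floor of 3 reads.

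The members and lists were chosen with earlier results of these data known. Named genes were all members and Nat10, up to 4 called genes per further list and comparison by fold, and the 3 genes most correlated with each member. Some genes that this rule names are not reported here. Alternatives were other scalings, pseudocounts of 1 and 50, no filter, edgeR 4.0.16, DESeq2 1.42.0, other designs and each library left out. Promoter windows came from RefSeq (GRCm38.p6), with all 9 genes matched.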

Additional observations from a re-analysis of the deposited data

Results flagged for a closer look

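The genotype effect differed between LZ and PreL for 5 members by limma's test of that difference in a fit of all 17 libraries. The differences were 1.09 for Dnmt1, 0.60 for Uhrf1, 1.15 for Dnmt3a, 1.32 for Dnmt3b and 1.26 for Tet3 on the log2 scale, each relative to a median of -0.31 over all genes. Their p-values, the S phase genes that moved the same way and the scalings under which fewer passed are given with the comparison above. Without WT LZ replicate 3 the difference of Dnmt3b was 0.77 (limma adjusted p = 0.11), and without WT LZ replicate 2 that of Uhrf1 was 0.44 (limma adjusted p = 0.15).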

How the results depend on the processing

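Tet1, Tet2 and Dnmt3l were limited by depth. Of 1086 values of single genes under alternatives, 984 kept direction and call, 32 lost and 37 gained a call, and 33 changed sign; the causes were not tested. The number of members called was 1 in SPG, 0 in PreL and 2 in LZ for SKO against WT. Without the fold threshold these were 2, 1 and 3, and scaling to total reads, an alternative chosen after seeing the data, gave 1 in LZ. That scaling also gave 1 instead of 3 from PreL to LZ in WT, 0 instead of 1 in SKO, and 1 instead of 5 for the LZ minus PreL difference. On values without rescaling the counts were 2 in PreL, 4 instead of 0 from SPG to PreL in SKO (3 without the fold threshold), 3 instead of 1 from PreL to LZ in SKO (2 without the filter and 2 without the fold threshold), 5 instead of 0 for the PreL minus SPG difference and 0 instead of 5 for LZ minus PreL. A fit of all libraries gave 1 from PreL to LZ in WT, and TMM, a pseudocount of 50 and DESeq2 each gave 1 for PreL minus SPG. Leaving out 1 library gave 1 to 3 in LZ, 1 to 3 from PreL to LZ in WT, 0 to 1 in SKO and 4 to 5 for LZ minus PreL.

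Signs changed without rescaling for Dnmt3a in SPG (-0.11), for Uhrf1 (0.41), Hells (0.67), Dnmt3a (0.41) and Dnmt3b (0.59) in PreL, for Dnmt1 (0.70), Hells (0.91), Dnmt3a (0.51), Dnmt3b (1.47) and Tet3 (0.70) from PreL to LZ in WT, for Dnmt3a (0.34) and Dnmt3b (0.87) from SPG to PreL and Hells (0.54) and Dnmt3a (0.80) from PreL to LZ in SKO, for Dnmt1 (0.87) and Dnmt3a (0.52) in PreL minus SPG and for Uhrf1 (-0.27) and Hells (-0.37) in LZ minus PreL. With total reads they changed for Hells in PreL (0.014), Dnmt1 (-0.11) and Uhrf1 (-0.11) in LZ, and Dnmt1 (-0.34) and Tet3 (-0.15) from PreL to LZ in SKO, and for Tet2 in LZ by edgeR (0.017) and DESeq2 (0.031). With 1 library left out, ranges spanned 0 for Hells (-0.14 to 0.041) and Dnmt3b (-0.32 to 0.073) in PreL, Tet2 in LZ (-0.55 to 0.33), Dnmt3b from PreL to LZ in WT (-0.90 to 0.20), Dnmt3b from SPG to PreL in SKO (-0.36 to 0.025) and Dnmt1 from PreL to LZ in SKO (-0.0069 to 0.13).

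Groups share replicate numbers in the labels, but same-numbered libraries deviated together in no regular way (for the 3 pairs of PreL and LZ in SKO the correlations were -0.0997, 0.131 and 0.0614). With the replicate number as a block the counts of members called stayed at 1, 0 and 2 for SKO against WT, 0 and 1 for the steps in SKO, and 0 and 5 for the differences, Dnmt3b in PreL turned to 0.16 and Nat10 in SPG reached -1.05 and was called. The block could not be fitted for PreL to LZ in WT, which share 1 number.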
